A study of Mus musculus with 10 samples.

Results

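The MYC, MAX and MXD network is a set of basic helix-loop-helix leucine zipper transcription factors that compete for the same partner and the same DNA. Its 10 genes, Myc, Mycn, Mycl, Max, Mxd1, Mxi1, Mxd3, Mxd4, Mnt and Mga, were picked by name, and each was found in the count table by its Ensembl identifier, 10 of 35375 features. Mycn and Max lie on mouse chromosome 12, Myc on 15, Mycl on 4, Mxd1 on 6, Mxi1 on 19, Mxd3 on 13, Mxd4 on 5, Mnt on 11 and Mga on 2. The data were gene counts from ribosome-depleted total RNA of whole mouse thymus, taken 3 days after birth from animals on the C57BL/6J background. Homozygous KO animals (n = 3) lacked both alleles of Usp7 in the hematopoietic system, heterozygous KO animals (n = 3) lacked 1 allele there, and the wild-type group (n = 4) kept both. Usp7 encodes a deubiquitinating enzyme. Per the series' design, some of the wild types carried the cre recombinase and others did not, and no label says which. Wild types 1 and 2 have 2 wt words in their titles. Wild types 3 and 4 have 1, and the word het in the names of their count columns. What these words stand for is not given in the sources used here. The driver of the cre and the deleted exons are not given in the sources used here, and stroma and vessels would keep Usp7 in a deletion limited to blood cells. The question addressed here is how the messenger RNA of each network member stood in each genotype, and whether those of its partners and targets moved with it.

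MYC, N-MYC and L-MYC bind DNA only as dimers with MAX, and the dimers sit on the E-box, the sequence CACGTG, and raise transcription of genes for growth, ribosomes and metabolism. The MXD proteins and MNT pair with the same MAX, bind the same E-box and recruit SIN3 corepressors with histone deacetylases, so the balance between both arms has long been viewed as a switch between growth and rest. MGA is a large protein that also pairs with MAX and anchors the repressive PRC1.6 complex. In the thymus, MYC is known for driving the burst of division that follows successful rearrangement of the T-cell receptor beta chain. N-MYC protein is a known client of the USP7 enzyme, but only RNA was measured here.

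The promoters of 9 of the 10 members were matched in RefSeq (GRCm38.p6), as windows from 250 bases before to 50 after each start. No window was matched for Myc. The E-box, read on both strands, was present in the windows of Max, Mxd4 and Mnt, 3 members, and in 7.15% of all 32851 promoters. The E2F motif, searched as TTTGGCGC or TTTCGCGC on both strands, was present in the window of Mycn alone among the members, and in 0.813% of all promoters. Mycn held 3 matches, starting 183, 179 and 168 bases before the start, of which the first pair overlap on opposite strands. These stretches are shown because they hold the letters through which network dimers or E2F factors are known to read DNA, and no binding was measured. Capitals mark the motif letters, and each sequence reads 5′ to 3′ on the strand of its gene.
Mycn, chr12:12941977-12942039, minus strand, E2F: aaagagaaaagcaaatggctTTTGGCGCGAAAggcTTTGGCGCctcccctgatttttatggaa
Max, chr12:76962246-76962271, minus strand, E-box: cccggcgcggtgagcccggtCACGTG
Mxd4, chr5:34187904-34187949, minus strand, E-box: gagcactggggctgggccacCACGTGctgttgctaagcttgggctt
Mnt, chr11:74830781-74830826, plus strand, E-box: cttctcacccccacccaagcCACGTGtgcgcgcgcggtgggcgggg

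Library totals, in M (mega) counts, were 39.8 to 86.4 for the wild types, 90.5 to 97.4 for the heterozygous KO and 92.3 to 122 for the homozygous KO. Levels are given as CPM, the count scaled by TMM to a library of 1 M counts, and a count of 0 would allow up to 3 counts, or 0.0245 to 0.0753 CPM (counting error only). Usp7 itself stood at 303, 422 and 408 CPM in homozygous KO, at 472, 516 and 516 CPM in heterozygous KO and at 676, 670, 594 and 589 CPM in wild type. The values of 594 and 589 CPM were those of wild types 3 and 4, whose column names carry the word het. They were also the deeper libraries of that group, at 86.4 and 81.0 M counts. The 3 genotypes did not overlap, although in edgeR's quasi-likelihood test the fall passed the threshold of an adjusted p under 0.05 in homozygous KO (fold 0.597, adjusted p = 0.000525) and not in heterozygous KO (fold 0.792, adjusted p = 0.608). These are counts over the whole gene, so RNA that lacks a deleted part would still be counted, as would RNA of cells that kept the gene. How completely the gene was deleted was not tested. The summed level of 8 markers of double-positive thymocytes was 7217 to 7492 CPM in homozygous KO and 9062 to 10413 CPM in wild type. Markers of other cells moved as well. All 6 neutrophil markers were higher in homozygous KO than in wild type, with sums of 55.8 to 309 CPM and 6.06 to 22.7 CPM, all 6 dendritic cell markers were lower, and all 5 B-cell markers were lower, as were 5 of 6 macrophage markers and 4 of 5 markers of mature single-positive thymocytes. Of the 6 markers of double-negative thymocytes 3 were lower, of the 7 fibroblast markers 4 were higher and 1 was lower, of the 7 of thymic epithelium 2 were higher and 1 was lower, and of the 7 erythroid markers 1 was higher. The B-cell sums were 6.34 to 8.92 CPM in homozygous KO and 29.9 to 47.5 CPM in wild type, and the dendritic cell sums were 3.86 to 5.77 CPM and 30.8 to 46.1 CPM. The part of these shifts in the changes of the network genes was not tested. Xist, the RNA of the inactive X chromosome of females, was over 100 CPM in 1 homozygous KO, in no heterozygous KO and in 3 wild types, so the sexes were not balanced. In whole tissue, fewer cells of a type and less RNA per cell cannot be told apart.

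Of the 10 members, Mycn rose, Mga rose slightly, Mycl and Myc fell, and Mnt fell slightly in homozygous KO against wild type. That is 5 of 10 called, 2 higher and 3 lower, against 25.8% of the 19511 genes tested (12.5% higher and 13.2% lower). The libraries of the genotypes did not overlap for 4 of the 10, against 32.7% of all genes. The median log2 fold change was -0.09 over the members and -0.01 over all genes. In heterozygous KO against wild type none of the 10 was called by edgeR, where 0.0154% of all genes were, and the libraries of 1 member, Mycn, did not overlap, against 8.69% of all genes. No member had an unadjusted p under 0.05 there, and DESeq2 called 0 members too. In homozygous against heterozygous KO, Mycn rose and Mycl and Mnt fell, 3 of 10 against 17.1% of all genes (7.63% higher and 9.5% lower), and 7 of the 10 did not overlap, against 33.3%.

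**Figure D1:**
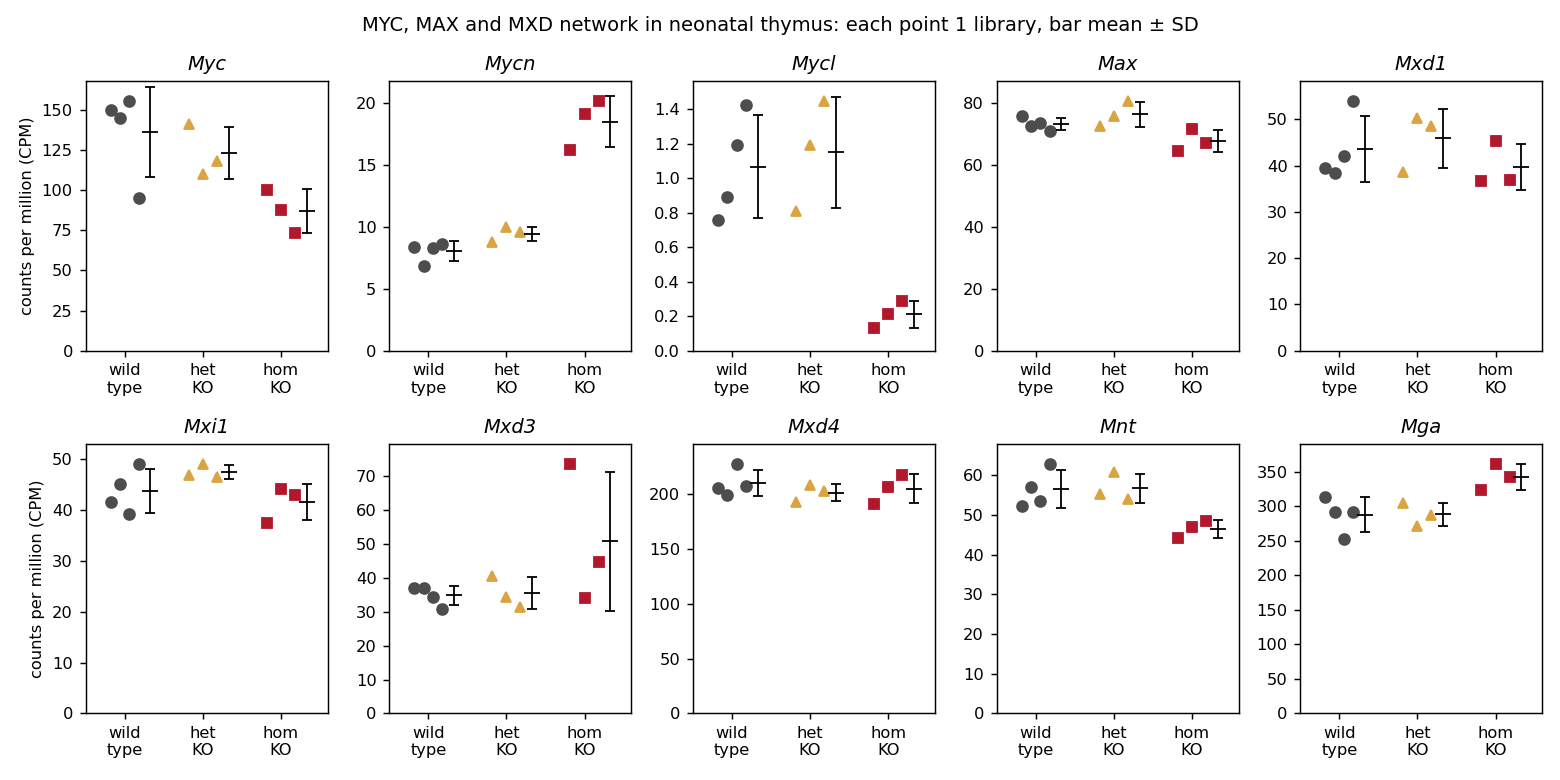
Level of each network member in CPM (linear axis from 0) by genotype, with 1 point for each library and the mean ± SD beside it. The homozygous KO libraries lie above the others for Mycn (16.2 to 20.1 CPM) and Mga, and below them for Mycl and Mnt.

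The MYC arm showed the widest changes, in opposite directions. Mycn, which encodes N-MYC, the family member best known from the embryo and from neuroblastoma, stood at 16.2, 19.1 and 20.1 CPM in homozygous KO. It stood at 8.78, 9.93 and 9.54 CPM in heterozygous KO and at 8.40, 6.81, 8.29 and 8.63 CPM in wild type. Every homozygous KO library was above every other library, and every heterozygous KO library was above every wild type, the nearest pair lying at 8.78 and 8.63 CPM. The rise in homozygous KO was 2.30-fold (log2 fold change 1.20, SE 0.11, edgeR adjusted p = 2.61e-05), and against heterozygous KO it was 1.96-fold (log2 0.97, SE 0.12, adjusted p = 0.000268). In heterozygous KO the log2 fold change was 0.23, with a 95% interval from -0.02 to 0.47 and an adjusted p of 0.712.

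Labels number the animals from 44 to 63, in a run from 44 to 51 and another from 56 to 63, each with all 3 genotypes. Within the first run Mycn was higher in homozygous KO than in wild type by 1.05 on the log2 scale, and within the second by 1.18. The first run holds 1 homozygous KO and 3 wild types, and the second 2 and 1. For every member, each difference within a run thus rests on 1 library on one side. In every setting tried, 18 for homozygous KO against wild type and 15 against heterozygous KO, the call on Mycn stood.

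Myc, the family member that most dividing cells use, stood at 100.3, 87.6 and 73.3 CPM in homozygous KO. It stood at 141, 109.7 and 118 CPM in heterozygous KO and at 149.6, 145 and 155 CPM in 3 of the wild types, and wild type 4 was lower, at 94.9 CPM. Homozygous KO and wild type therefore overlapped through that single wild type and homozygous KO 1, and homozygous and heterozygous KO did not overlap. The fall against wild type was to 0.640 of its level (log2 -0.64, SE 0.17, edgeR adjusted p = 0.0150). Within animals 44 to 51 the difference was -0.58 on the log2 scale and within animals 56 to 63, where wild type 4 is the only wild type, it was -0.24. The call did not stand without homozygous KO 3 (adjusted p = 0.0649) or with only the wild types whose titles carry 1 wt word (adjusted p = 0.134). Against heterozygous KO the log2 difference was -0.50 (SE 0.17), with an adjusted p of 0.0768, which fell under the threshold in 6 of 15 settings.

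Mycl, which encodes L-MYC and is known in the immune system from dendritic cells, was the least abundant member. It stood at 0.130, 0.215 and 0.288 CPM in homozygous KO, from 15, 22 and 26 counts. It stood at 0.810, 1.19 and 1.45 CPM in heterozygous KO and at 0.761, 0.891, 1.19 and 1.43 CPM in wild type. All 3 homozygous KO libraries were below all others, while heterozygous KO and wild type overlapped through most of their range. The fall was to 0.195 of the wild-type level (log2 -2.36, SE 0.36, edgeR adjusted p = 0.000819), and to 0.183 of the heterozygous level (log2 -2.45, SE 0.37, adjusted p = 0.0011). Within the runs of animal numbers the difference from wild type was -2.64 and -2.41 on the log2 scale. The heterozygous difference of 0.09 had a 95% interval from -0.61 to 0.80.

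Dendritic cell markers moved with Mycl. The sum of Flt3, Itgax, Xcr1, Siglech, Ccl22 and Batf3 was 3.86 to 5.77 CPM in homozygous KO, 34.6 to 44.9 CPM in heterozygous KO and 30.8 to 46.1 CPM in wild type, and 6 of 6 were called lower. Siglech, a marker of plasmacytoid dendritic cells, was at 0 in at least 1 library. Their part in the fall of Mycl was not tested.

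To set the family members side by side, levels were divided by the length of the union of each gene's exons, as CPM per kb. In wild type Myc held the greatest level, 50.1 ± 10.2 CPM per kb (SD, n = 4), with Mycn at 2.44 ± 0.251 and Mycl at 0.264 ± 0.0743. The summed MYC family level was 33.2 to 41.9 CPM per kb in homozygous KO, 43.7 to 54.8 in heterozygous KO and 37.9 to 60.0 in wild type. Homozygous KO and wild type overlapped in this sum through wild type 4. The homozygous KO libraries drew 11.7%, 15.2% and 18.4% of this sum from Mycn. The heterozygous KO libraries drew 4.86%, 6.90% and 6.18% from it, and the wild types 4.41%, 3.72%, 4.19% and 6.91%. The share was thus higher in each homozygous KO library than in any other library, and the other genotypes overlapped.

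**Figure D2:**
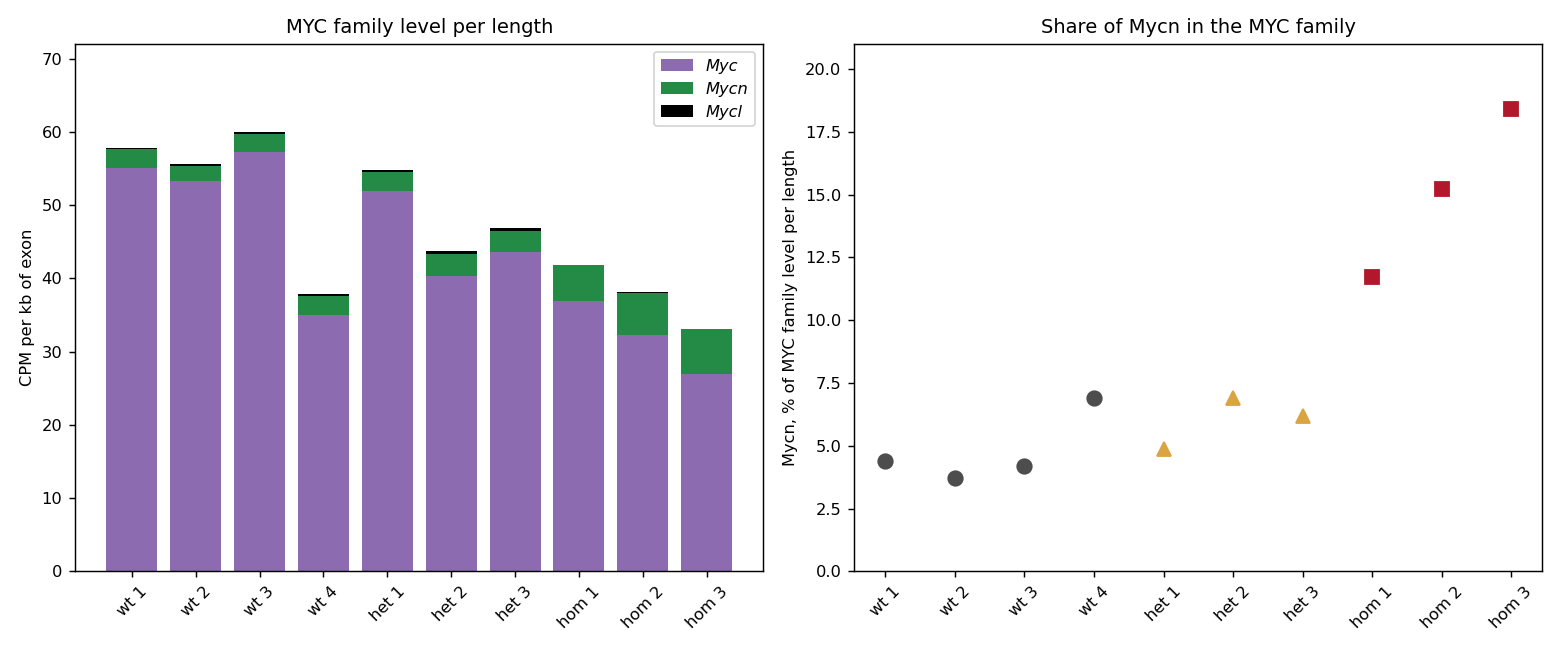
Left, summed level of Myc, Mycn and Mycl per length (CPM per kb of exon, bars from 0) in each library of wild type (wt), heterozygous KO (het) and homozygous KO (hom). Right, the percentage of that sum given by Mycn, which is 11.7% to 18.4% in homozygous KO and at most 6.91% in the other libraries.

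Max, the obligate partner of both arms, differed little. It stood at 64.5, 71.5 and 67.0 CPM in homozygous KO, at 72.4, 75.8 and 80.5 CPM in heterozygous KO and at 75.7, 72.4, 73.4 and 70.8 CPM in wild type. Homozygous KO 2 lay within the wild-type range and the other homozygous KO libraries below it, while homozygous and heterozygous KO did not overlap. The log2 fold change was -0.11 against wild type, with a 95% interval from -0.24 to 0.01 and an edgeR adjusted p of 0.177. Against heterozygous KO it was -0.17 (interval -0.30 to -0.04, adjusted p = 0.0762). Scaled by library totals alone, which moved the median of all genes from -0.01 to -0.11, Max was called lower against wild type (log2 -0.21, adjusted p = 0.0218).

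With all libraries and no further term, none of the MXD genes passed edgeR's test in any comparison. Against wild type, 1 of the 4, Mxd3, had an unadjusted p under 0.05 in homozygous KO and was called by DESeq2. Mxd4, which encodes a MAX-binding repressor and is the most abundant of the 4 per length, stood at 191, 206 and 217 CPM in homozygous KO and at 200 to 228 CPM in wild type. The log2 fold change was -0.04, with a 95% interval from -0.17 to 0.10. Mxi1, a repressor first found as a MAX interactor, stood at 37.5, 44.02 and 42.9 CPM in homozygous KO, at 46.4 to 49.1 CPM in heterozygous KO and at 39.2 to 48.9 CPM in wild type. The heterozygous libraries all lay above the homozygous ones, and the log2 fold change against wild type was -0.07 (interval -0.26 to 0.11). Mxd1, which rises as blood cells of the myeloid lineage mature, stood at 36.8, 45.4 and 37.0 CPM in homozygous KO, at 38.7 to 50.4 CPM in heterozygous KO and at 38.5 to 54.0 CPM in wild type. The log2 fold change was -0.13 (interval -0.43 to 0.16), in libraries whose neutrophil marker sum was higher than in every wild type. In the same comparison 5 of 6 macrophage markers and 6 of 6 dendritic cell markers were called lower. The part of these cells in the level of Mxd1 was not tested. With the run of animal numbers as a term Mxd1 was called lower (log2 -0.25, edgeR adjusted p = 0.0470), and with only the wild types of 2 wt words in the title its value was 0.025 (adjusted p = 0.911).

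Mxd3, the MXD gene known from cells in S phase, spread widely among the homozygous KO libraries. It stood at 73.7, 34.1 and 44.6 CPM in homozygous KO, at 40.6, 34.4 and 31.5 CPM in heterozygous KO and at 37.0, 36.9, 34.5 and 30.9 CPM in wild type. Homozygous KO 1 held the highest level of all and homozygous KO 2 lay inside the wild-type range. The log2 fold change was 0.55 (SE 0.21, interval 0.09 to 0.998, edgeR adjusted p = 0.0746), and it was 1.03 within animals 44 to 51 and 0.33 within animals 56 to 63. Homozygous KO 1 is the only homozygous KO among animals 44 to 51. The rise passed the threshold without homozygous KO 2 (log2 0.77, adjusted p = 0.0100), with the run of animal numbers as a term (log2 0.69, adjusted p = 0.00394) and in DESeq2 (adjusted p = 0.0308). Exons of Mxd3, Mxi1 and Mxd4 overlap those of a gene on the other strand (Prelid1, Gm10197 and Gm42846), and how the counting used strand is not given in the sources used here, so their counts are uncertain.

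Added up per length, the MXD genes gave 51.6 to 64.3 CPM per kb in homozygous KO, 50.8 to 53.5 in heterozygous KO and 51.2 to 53.1 in wild type. The level of the MYC family over that of the MXD genes was 0.651, 0.738 and 0.593 in homozygous KO. It was 1.05, 0.817 and 0.921 in heterozygous KO. In wild type it was 1.12, 1.09 and 1.13 in the first 3 libraries and 0.724 in wild type 4. The 3 homozygous KO libraries and wild type 4 were thus lower in this ratio than the other 6 libraries. It is a ratio of RNA levels, and dimers were not measured.

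Mnt, a broadly expressed repressor that can replace MYC on MAX, stood at 44.1, 47.1 and 48.4 CPM in homozygous KO. It stood at 55.3, 60.8 and 54.0 CPM in heterozygous KO and at 52.4, 57.1, 53.5 and 62.9 CPM in wild type. Every homozygous KO library was below every other library. The fall was small, to 0.824 of the wild-type level (log2 -0.28, SE 0.08, edgeR adjusted p = 0.0194) and to 0.821 of the heterozygous level (adjusted p = 0.0323). Within the runs of animal numbers the difference from wild type was -0.30 and -0.40. The call against wild type was lost in 5 of 18 settings, with adjusted p values of up to 0.0708, among them the fits without homozygous KO 1 (0.0612) or 2 (0.0513) and with the level of Xist as a term (0.0672), and the direction stood in all 18. Against heterozygous KO the call was lost when any 1 of the 6 libraries of either genotype was left out, with adjusted p values from 0.0522 to 0.120.

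Mga, whose protein carries a T-box as well as the helix-loop-helix, stood at 324, 362 and 343 CPM in homozygous KO. It stood at 306, 272 and 287 CPM in heterozygous KO and at 314, 292, 253 and 291 CPM in wild type. The homozygous KO libraries lay above all others, the nearest pair being 324 and 314 CPM. The rise was 1.19-fold against wild type (log2 0.25, SE 0.07, edgeR adjusted p = 0.0278) and 1.19-fold against heterozygous KO (log2 0.25, SE 0.08, adjusted p = 0.0527). Against heterozygous KO it passed the threshold in 5 of 15 settings, among them DESeq2 (adjusted p = 0.0246), the run of animal numbers as a term (0.0448) and the fit without homozygous KO 1 (0.0459). The call against wild type was lost in 7 of 18 settings, among them scaling by library totals alone (log2 0.16, adjusted p = 0.149), the level of Xist as a term (adjusted p = 0.0852), without homozygous KO 2 (adjusted p = 0.0858) or 3 (0.0572) and without wild type 2 (0.0558) or 3 (0.0526).

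**Figure D3:**
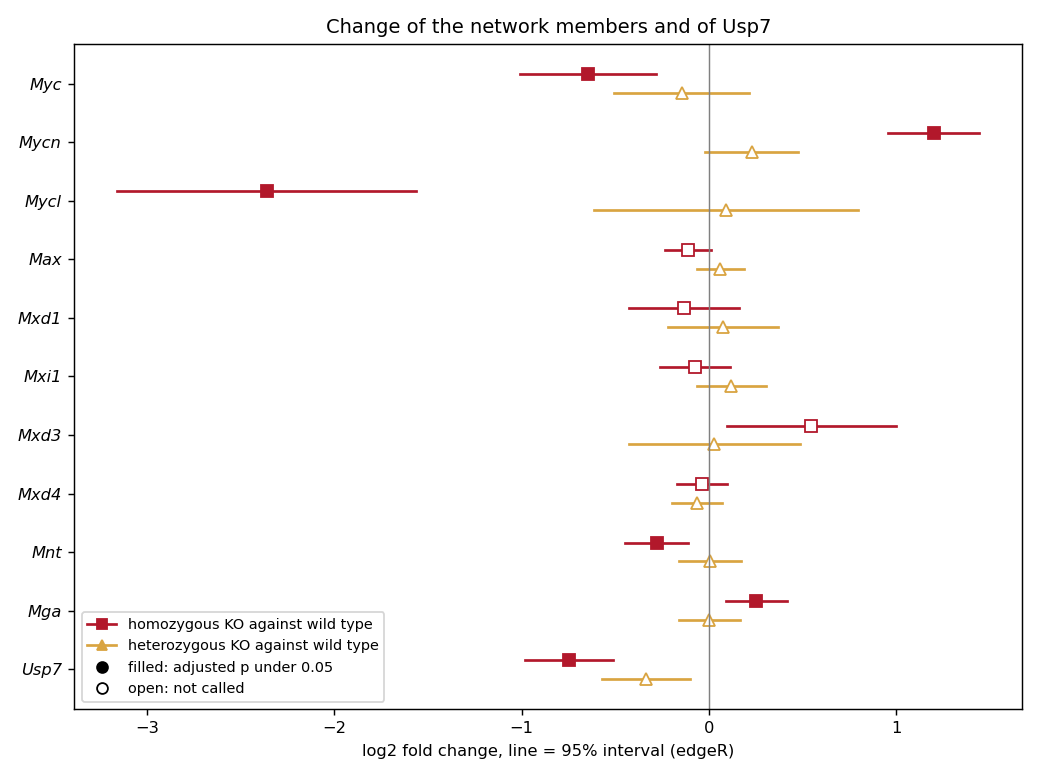
Log2 fold change of the 10 members and of Usp7 in homozygous KO (squares) and heterozygous KO (triangles) against wild type, with 95% intervals from edgeR, filled where the adjusted p was under 0.05. Mycn lies at 1.20 and Mycl at -2.36 in homozygous KO, and no triangle is filled.

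In order of level per length in wild type, Myc came first, followed by Mxd4 (24.8 CPM per kb), Max (20.3), Mga (18.8), Mxd3 (14.7), Mnt (12.2), Mxi1 (6.40), Mxd1 (6.15), Mycn and Mycl. The ranges of Max and Mga over the libraries overlapped in this order, as did those of Mxd3 and Mnt and those of Mxi1 and Mxd1. Members share their libraries, so overlapping ranges do not show that neighbours were alike. Within each wild-type library Max stood above Mga. Mnt stood above Mxd3 in wild type 4 alone, and Mxd1 above Mxi1 in wild types 3 and 4. The differences between members were not tested. In homozygous KO the first and the last stayed Myc (32.0 ± 4.98 CPM per kb, SD, n = 3) and Mycl (0.0523 ± 0.0196). Mycn, at 5.61 ± 0.626, there overlapped with Mxd1 at 5.61 ± 0.694. The order depends on the length used: by coding length Mxd4 and Max stood above Myc, and Mga was the eighth of the 10.

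The genes whose pattern over the 10 libraries was most like that of Mycn, among 10856 candidates and by the root-mean-square difference of centred log2 CPM, were Maged1 (0.127), Fndc3b (0.145), Pik3r3 (0.147), Tle1 (0.149) and Plod2 (0.155). Mycn itself varied by 0.527 around its mean on this scale. Maged1 averaged 20.3 CPM over the homozygous KO libraries and 8.09 CPM over the wild types, and Tle1, a Groucho corepressor, 21.3 and 8.93 CPM. For Myc, which varied by 0.350, they were H2-T24 (0.0848), Pglyrp2 (0.108), Zfp239 (0.111), Armcx1 (0.115) and Zfp935 (0.116). These are descriptions over libraries that share the genotype difference, with no test.

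The corepressors and the complexes around the network were next taken from lists of known partners. Counts in homozygous KO against wild type are to be read beside 25.8% of all genes called, 12.5% higher and 13.2% lower. Of the 3 genes of the neighbouring MLX arm, whose proteins MLX, MondoA and ChREBP sense sugar, none was called in any comparison by edgeR or DESeq2, and 1 had an unadjusted p under 0.05, in heterozygous KO against wild type. In homozygous KO, scaling by library totals alone called 1 lower. Of the 7 SIN3 and NCOR corepressors that MXD and MNT recruit, 2 rose in homozygous KO and none fell, with a median log2 fold change of 0.19. By library totals alone 1 was called higher and 1 lower, and 4 other settings left 1 higher. Hdac2, a histone deacetylase, rose from 147 ± 3.88 CPM (SD, n = 4) in wild type to 181 ± 16.1 CPM (SD, n = 3), by 0.30 on the log2 scale (SE 0.06, edgeR adjusted p = 0.00325). Sap30, a SIN3 subunit, rose by 0.25 (adjusted p = 0.0332), a call lost in 12 of 18 settings. Sin3a itself had a log2 fold change of 0.10 (adjusted p = 0.303) and Sin3b of 0.19 (adjusted p = 0.0809).

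Of the 11 PRC1.6 partners of MGA, 6 rose in homozygous KO and none fell, where 12.5% of all genes rose, and the median log2 fold change was 0.18. E2f6, the E2F-like DNA-binding subunit, rose from 24.3 to 29.7 CPM in the wild types to 29.5 to 37.2 CPM (log2 0.35, SE 0.10, edgeR adjusted p = 0.0276). Cbx1, a chromodomain protein of heterochromatin, rose by 0.31 (adjusted p = 0.0117) and Tfdp1, the dimer partner of E2F6, by 0.30 (adjusted p = 0.0200). The other risers were Wdr5 (0.20), Cbx3 (0.19) and the subunit L3mbtl2 (0.18). Pcgf6, the subunit that sets PRC1.6 apart from other PRC1 complexes, had a log2 fold change of -0.06 (adjusted p = 0.622). The rises were small, and E2f6 lost its call in 9 of 18 settings, Tfdp1 in 4 and Cbx1 in 2. With a replicate block, or with no filter beyond 1 count, 3 genes of the list were called higher. Scaled by library totals alone 1 gene of the list was called higher and 1 lower, and with the level of Xist as a term 1 was called higher. None of the 11 was called against heterozygous KO.

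Of the 11 coactivators that MYC recruits, such as Trrap and Ep400, edgeR called none, with a median log2 fold change of 0.12. DESeq2 called 1 of them higher, scaling by library totals alone called 1 lower, and 3 had an unadjusted p under 0.05. In edgeR, a filter of at least 1 CPM in 3 libraries, a replicate block or the run of animal numbers as a term also called 1 higher. Trrap, the scaffold of histone acetyltransferase complexes, stood at 467 ± 31.8 CPM (SD, n = 4) among the wild types, as against 440.6 ± 18.8 CPM (SD, n = 3) for the homozygous KO. Of the 13 genes that act on the stability of MYC proteins, 4 rose and 1, Usp7, fell, 5 of 13 beside 25.8% of all genes. Aurka, the mitotic kinase that shields N-MYC from degradation, rose from 78.0 ± 3.20 to 114 ± 23.4 CPM (log2 0.55, SE 0.11, edgeR adjusted p = 0.00323). Plk1, a mitotic kinase reported to act on N-MYC turnover, rose by 0.50 (adjusted p = 0.0148, lost in 3 of 18 settings), and Usp28, a deubiquitinase of MYC, by 0.39 (adjusted p = 0.000693). The fourth was Gsk3a (0.17, adjusted p = 0.0107). Fbxw7, the ubiquitin ligase subunit that marks MYC and N-MYC for degradation, averaged 75.0 ± 2.48 CPM (SD) with both alleles deleted and 75.1 ± 2.72 CPM in the wild types (log2 -0.001, SE 0.06).

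**Figure D4:**
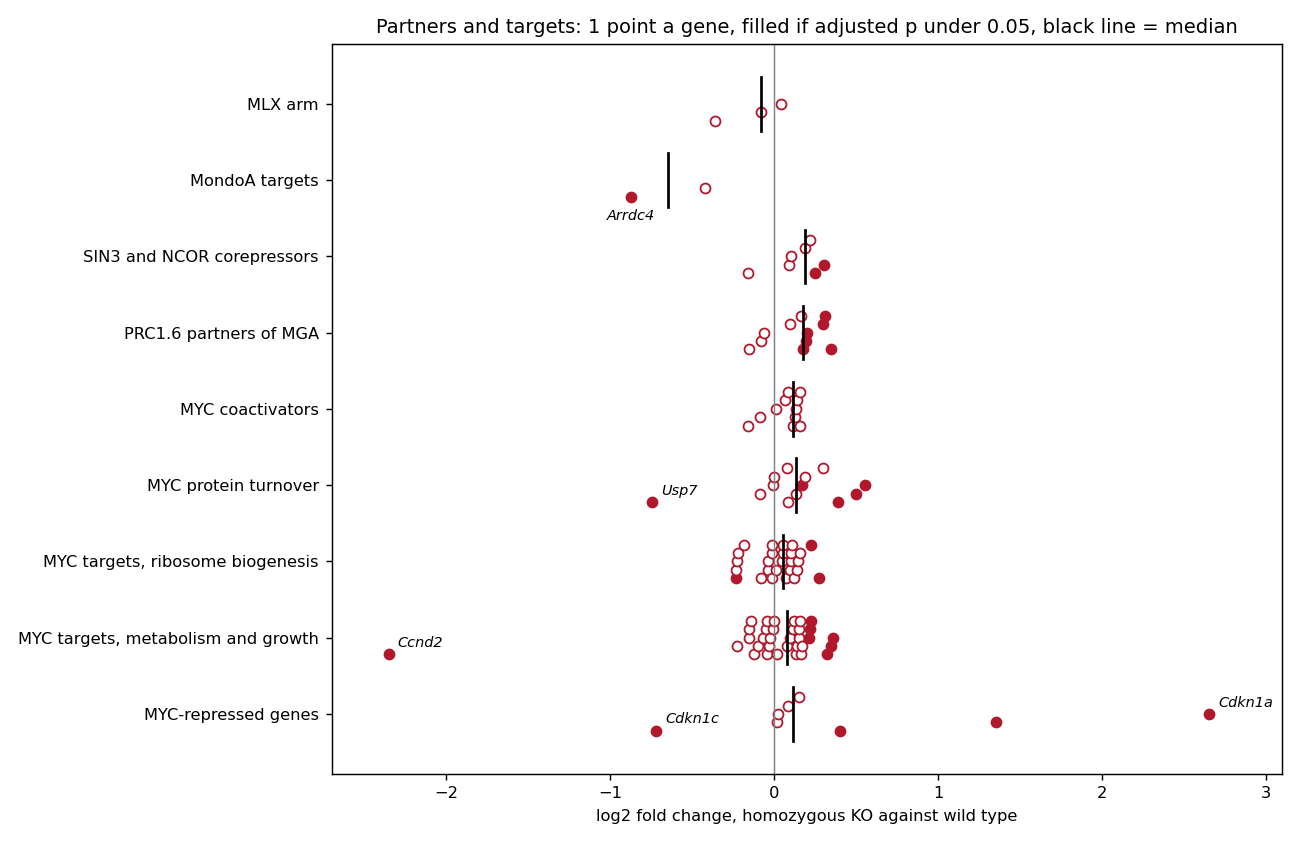
Homozygous KO against wild type, log2 fold change of each gene of the partner and target lists (1 point a gene, filled where the adjusted p was under 0.05, black line the median of the list). Most points lie close to 0, and Ccnd2 (-2.35) and Cdkn1a (2.65) lie farthest out.

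Known MYC targets were taken from lists for ribosome biogenesis and for metabolism and growth. Of the 26 targets for ribosome biogenesis, 2 rose and 1 fell in homozygous KO, where 25.8% of all genes were called, with a median log2 fold change of 0.05 beside -0.01 for all genes. The balance turned with the setting, since library totals alone gave 1 higher and 5 lower and a median of -0.04. A replicate block gave 1 higher and 2 lower, as did the level of Xist as a term. Nop58, a core protein of small nucleolar RNPs, rose by 0.28 (SE 0.06, edgeR adjusted p = 0.00747) and Ncl, nucleolin, by 0.22 (adjusted p = 0.0223, lost in 6 of 18 settings, among them without homozygous KO 2), whereas Polr1a, the large subunit of RNA polymerase I, fell by 0.24 (adjusted p = 0.0120, and 0.0556 without homozygous KO 3). Npm1 and Fbl, other nucleolar proteins, had log2 fold changes of 0.14 and 0.10. Of the 33 targets in metabolism and growth, 6 rose and 1 fell, 7 of 33 and a share near that of all genes, with a median of 0.08. Library totals alone gave 3 higher and 2 lower and a median of -0.02. A replicate block, the level of Xist as a term, no filter beyond 1 count or only the compared groups also gave 3 higher. Cdc25a, a phosphatase that starts S phase, rose from 120 ± 1.24 to 153 ± 14.4 CPM (log2 0.36, SE 0.06, adjusted p = 0.00125), Ran, the nuclear transport GTPase, by 0.34 (adjusted p = 0.00432) and Pa2g4 by 0.32 (adjusted p = 0.00335). Odc1, ornithine decarboxylase and a classic MYC target, had a log2 fold change of -0.12 (adjusted p = 0.184).

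Ccnd2, which encodes cyclin D2, was the called fall of that list and its widest change. It stood at 29.6 to 44.4 CPM in homozygous KO and at 142 to 227 CPM in wild type, without overlap (log2 -2.35, SE 0.16, edgeR adjusted p = 4.26e-06), and it also fell against heterozygous KO (adjusted p = 1.15e-05). The E-box was present in the promoter windows of 10 of the 29 metabolism and growth targets with a window and of 5 of the 21 ribosome biogenesis targets with one. A gene was counted if any of its windows held the E-box, whereas the 7.15% of all promoters is a share of single windows. By the same count it was present for 4 of the 6 dendritic cell markers and 0 of the 6 neutrophil markers. Of the called targets named here, Ran held it. Cdc25a, Pa2g4, Ncl, Nop58 and Polr1a did not, and Ccnd2 had no matched window.

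Of 8 genes that MYC is known to repress, 3 rose and 1 fell, beside 25.8% of all genes called. In 5 settings, among them library totals alone, a replicate block and the level of Xist as a term, 1 was called higher. Cdkn1a, which encodes the cell cycle inhibitor p21 and is also a direct target of p53, rose from 4.64 to 8.08 CPM in the wild types to 33.5 to 46.0 CPM in homozygous KO (log2 2.65, SE 0.18, edgeR adjusted p = 3.74e-06). Gadd45a, likewise a p53 target, rose by 0.40 (adjusted p = 0.0394), a call lost in 12 of 18 settings. The third was Cdkn2b, at 0.410 to 0.573 CPM and 0.0481 to 0.293 CPM (log2 1.35, adjusted p = 0.0487), which lies under the level set for named genes and is given because it completes the count. Cdkn1c, another inhibitor of the same family, fell by 0.72 (SE 0.10, adjusted p = 0.000444), and Cdkn1b had a log2 fold change of 0.02. Of the 2 targets of MondoA, Arrdc4 fell (log2 -0.87, adjusted p = 0.0145, and 0.0518 without homozygous KO 3), and Txnip had a log2 fold change of -0.42 (adjusted p = 0.0622). Both were called lower by DESeq2, by library totals alone and with no filter beyond 1 count. The same held with a replicate block or the run of animal numbers as a term. With 1 allele deleted, edgeR called none of the 114 genes of these lists against wild type, nor did DESeq2, and 11 had an unadjusted p under 0.05.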

How the data were processed

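RNA was isolated from the thymus of 10 mice, and stranded, ribosome-depleted libraries were sequenced on an Illumina NovaSeq. The authors deposited a table of raw, unnormalized read counts in which each animal has its own column. The submitters' processing notes name CASAVA, STAR 2.4.1d and HTSeq 0.6.1p1 and the builds NCBIM37 and mm9. The annotation release and the strand setting of the counting are not given in the sources used here. If strand was not used, overlapping genes share reads. Groups came from the sample titles. Wild types 3 and 4 have the word het in their column names, and the title's group was kept.

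Symbols and exon lengths came from a GENCODE annotation of GRCm38, a later build than that of the counts, and matched 30204 of 35375 features. Another 908 features, under other names, held 1.74% to 2.29% of each library's counts. After filterByExpr and TMM scaling, glmQLFit and glmQLFTest of edgeR 4.0.16, run under R 4.3.3, were applied once to the 10 libraries together, giving 19511 genes tested and a common biological coefficient of variation of 0.207. Adjusted p is Benjamini-Hochberg over all genes tested, and a gene was called under 0.05. The standard error was the absolute log2 fold change over the root of F. The 12 pairs within groups had a chi-square per degree of freedom of 13.5 to 116, so no library was repeated within a group. Pairs across groups were not compared. The labels do not call the mice littermates. Each p-value sets a group difference against the spread between animals of a genotype, estimated by edgeR over the 10 libraries together.

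The members and lists were chosen with earlier results of these data known. Named from each list were the members, Usp7, and up to 3 called rises and 3 called falls of largest size whose mean log2 CPM reached 1, and the 5 genes most like Mycn and Myc. Other genes of a list stand in the text as examples chosen after their values were seen. Alternatives were DESeq2 1.42.0, other scalings and filters, only the groups compared, the replicate number, the run of animal numbers or the level of Xist as a term, subsets of the wild types, and leaving out each library.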

Additional observations from a re-analysis of the deposited data

Results flagged for a closer look

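Within the 4 wild types the lowest or highest library was set against the others for each of the 10 members, a check that chance alone passes in about 1 of 20 groups. Myc was picked out because wild type 4 (94.9 CPM) lay far below the other 3 wild types (145 to 155 CPM), with a gap of 0.857 of the whole range on the log2 scale. Mycn was picked out, only just, because wild type 2 (6.81 CPM) lay below the others (8.29 to 8.63 CPM), with a gap of 0.830 of the range. Wild type 4 is the only wild type among animals 56 to 63, and its column name carries the word het.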

How the results depend on the processing

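Each call on a member or on Usp7 was recomputed under 18 other settings (15 for homozygous against heterozygous KO). The calls on Mycn and Mycl in homozygous KO stood in all of them, and the log2 fold change against wild type ran from 1.11 to 1.28 for Mycn and from -2.67 to -1.97 for Mycl. Of 510 member values recomputed, 439 kept direction and side of the threshold, 20 lost it and 20 gained it. The calls against wild type on the list genes picked by size were recomputed under the same 18 settings. Counts of whole lists were recomputed without the fits that left out a library or took subsets of the wild types. Calls on Gsk3a, Wdr5, Cbx3, L3mbtl2, Cdkn2b and the cell type markers were not recomputed. Scaling by library totals alone moved the share of higher calls in homozygous KO against wild type from 48.6% to 29.0%. That of homozygous against heterozygous KO moved from 44.6% to 26.9%. The replicate numbers did not pair the animals (correlations from -0.10 to 0.23). With a replicate block 4934 genes and 5 members were called in homozygous KO against wild type, 5 genes in heterozygous KO against wild type, and 4 members against heterozygous KO.

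In homozygous KO against wild type 5030 genes were called, and 2670 with only the wild types whose titles have 1 wt word. The 5 members called became 3 with these, 3 with only the wild types with 2 wt words and 3 with the level of Xist as a term, and they became 7 with the run of animal numbers as a term and 6 in DESeq2. Without 1 library 3945 to 4933 genes and 3 to 5 members were called, the 3 without homozygous KO 3. DESeq2 called 60 genes in heterozygous KO against wild type, where edgeR called 3, and 2 to 6 without 1 library, the 6 without wild type 4. Against heterozygous KO, 3 members became 5 by library totals alone, with only the compared groups or in DESeq2, and 6 with the run of animal numbers as a term. Without 1 library 2153 to 2990 genes and 2 to 4 members were called, from 3342 genes, the 2153 without heterozygous KO 3.

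Uncalled differences near 0 changed sign. In heterozygous KO against wild type this held with the run of animal numbers as a term for Myc (0.051), Mycl (-0.21), Mxd1 (-0.055) and Mnt (-0.046), with wild types of 1 wt word for Mycl (-0.19), Mxd1 (-0.065) and Mnt (-0.038), and with those of 2 for Mxd3 (-0.057) and Mga (-0.073). It held with a replicate block for Mxd3 (-0.040), with Xist as a term for Mxd3 (-0.12) and Mga (-0.064), and by library totals for Mnt (-0.0026) and Mga (-0.0041). Without 1 library these values ran from -0.11 to 0.30 for Mycl, from -0.069 to 0.11 for Mxd3, from -0.045 to 0.062 for Mnt and from -0.054 to 0.047 for Mga. In homozygous KO against wild type Mxd1 (0.025) and Mxd4 (0.014) changed sign with wild types of 2 wt words, and Mxd4 ran from -0.078 to 0.0071 without 1 library. Against heterozygous KO Mxd4 changed sign with library totals (-0.060) and with Xist (-0.0043), and ran from -0.021 to 0.064 without 1 library. The cause was not tested.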
